A study of Homo sapiens with 44 samples.

Results

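The genes that lie around JMJD6 on chromosome 17q25 were examined in 2 neuroblastoma cell lines in which JMJD6 was knocked down. A list of 44 genes of this band was taken, in which MXRA7, METTL23 and MFSD11 lie closest to JMJD6 and the others further along the band on either side. It does not hold every gene of the band: 37 other protein-coding genes lie between its outermost members. Of the 44 genes, 40 had 1 named transcript cluster each on the array, out of 21448 clusters tested, of which 17709 carried a gene symbol. CBX8, TIMP2, SEC14L1 and USP36 were not analysed here. JMJD6 itself is the targeted gene and is given beside them. In CHP134, a MYCN-amplified line, the groups were JMJD6 shRNA-1 cells with DOX or vehicle (n = 4 arrays each, repeats A, B, E and F), JMJD6 shRNA-2 cells with DOX or vehicle (n = 4 each, repeats A to D) and control shRNA cells with DOX or vehicle (n = 6 each, repeats A to F). In SK-N-AS, a line without MYCN amplification, they were JMJD6 shRNA-2 cells with DOX or vehicle and control shRNA cells with DOX or vehicle (n = 3 each). DOX (doxycycline), which switches the hairpin on, was given at 2 µg/ml for 40 h. All cells, controls included, were pools that carried a DOX-inducible lentiviral hairpin construct and had been sorted for bright GFP, and both lines are described in the study as carrying extra copies of the 17q segment that holds JMJD6. The arrays measured RNA as log2 intensity, so that a difference of 1 is a doubling. The labels do not say that the arrays of a group came from separate cultures, so the p-values rest on the spread of these arrays alone.

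JMJD6 encodes an oxygenase of the Jumonji family that acts on arginine and lysine residues and influences splicing. Gain of the long arm of chromosome 17 is the commonest chromosome change in neuroblastoma, and it raises the copy number of many genes together, among them JMJD6 and the genes considered here. The band holds genes of unrelated roles, including BIRC5 (survivin, an inhibitor of cell death needed for cell division), the Polycomb gene CBX2, the sphingosine kinase SPHK1 and RPTOR, the scaffold of a growth-controlling kinase complex.

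The 44 columns of the deposited table held 40 distinct arrays, since 4 columns were identical copies and were counted once with their originals. The median log2 intensity of an array was 6.09 to 6.16 for CHP134 and 6.01 to 6.06 for SK-N-AS, and 39 or 40 of the 40 measured genes were above the negative controls of each array (above their 95th percentile). The exception was DNAH17, an axonemal dynein chain, which passed that level on 5 of 28 CHP134 arrays and 8 of 12 SK-N-AS arrays. MYCN averaged 12.20 in control vehicle cells of CHP134 and 4.09 in those of SK-N-AS. The adrenergic markers were mixed. GATA3 stood at 9.99 in CHP134 and 9.05 in SK-N-AS, and ISL1 at 9.08 in CHP134 and 7.87 in SK-N-AS. TH stood at 6.48 in CHP134 and 5.93 in SK-N-AS, and DBH at 4.79 in CHP134 and 4.58 in SK-N-AS. In the other direction, PHOX2A stood at 7.36 in CHP134 and 8.44 in SK-N-AS, and HAND2 at 8.42 in CHP134 and 8.65 in SK-N-AS. Of the mesenchymal markers, PRRX1 stood at 6.54 in CHP134 and 10.67 in SK-N-AS. PTPRC, a surface phosphatase of blood cells, was at 3.37 and above background on 0 of 28 arrays in CHP134, but at 9.40 and above background on 12 of 12 arrays in SK-N-AS. None of the 19 marker clusters measured (6 adrenergic, 6 mesenchymal and 7 of other cell types) passed the threshold in any comparison. In SK-N-AS, 2 control arrays (vehicle A and DOX B) stood apart on the first principal component, which carried 30.9% of the variance. They scored -18.7 and -16.1, beside -16.4 to -5.67 for the 6 JMJD6 shRNA-2 arrays, against 23.0 to 27.3 for the other 4 control arrays. In CHP134 that component carried 27.4%. Scores ran from -35.4 to -11.6 in repeats A and B, -6.84 to 14.1 in C and D and 13.4 to 47.8 in E and F. Within repeats E and F the control arrays scored 13.4 to 23.1 and the shRNA-1 arrays 34.3 to 47.8, so it did not follow the repeat letters alone.

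JMJD6 read 7.02, 6.77, 7.08 and 7.16 in shRNA-1 cells with DOX (repeats A, B, E and F), against 7.94, 7.70, 7.63 and 7.73 with vehicle. It read 6.45, 6.74, 6.69 and 6.90 in shRNA-2 cells with DOX (repeats A to D), against 7.80, 7.61, 7.79 and 7.87 with vehicle. The DOX arrays lay below all vehicle arrays for both hairpins, and control cells spanned 7.63 to 8.06 with DOX and 7.65 to 8.16 with vehicle. The response was taken as DOX minus vehicle in JMJD6 shRNA cells less the same difference in control shRNA cells, by limma with Benjamini-Hochberg adjustment over all clusters and a threshold of 0.05. For JMJD6 it was -0.85 ± 0.14 on the log2 scale over both hairpins (SE, adjusted p = 0.00153).

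MXRA7, which encodes a membrane protein tied to matrix remodelling and is the protein-coding gene directly before JMJD6, read higher with DOX than with vehicle in JMJD6 shRNA cells of both hairpins. It read 11.42, 11.68, 11.46 and 11.31 in shRNA-1 cells with DOX, against 11.01, 11.12, 10.99 and 11.19 with vehicle. It read 11.74, 11.73, 11.50 and 11.48 in shRNA-2 cells with DOX, against 11.14, 11.18, 11.03 and 11.05 with vehicle. Every DOX array of the JMJD6 shRNA cells lay above every vehicle array of the same line, and also above all 12 control arrays, which reached 11.30 with DOX and 11.28 with vehicle. The response over both hairpins was 0.40 ± 0.14. Its adjusted p was 0.232 in the fit without repeats and 0.0355 when the repeat letter was fitted as a block. The labels do not say that the letters pair arrays. The response was positive in 8 of 8 repeats, from 0.13 to 0.63.

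MFSD11, an orphan transporter-like protein of the major facilitator superfamily encoded 3 protein-coding genes beyond JMJD6, also read higher with DOX. It read 8.31, 8.54, 8.36 and 8.47 in shRNA-2 cells with DOX, against 7.80, 7.90, 7.82 and 7.84 with vehicle, with no overlap between the 2 groups. It read 8.25, 8.03, 7.87 and 7.36 in shRNA-1 cells with DOX, against 7.51, 7.54, 7.44 and 7.02 with vehicle. Here the groups overlapped, because both arrays of repeat F were lower than the rest, while DOX exceeded vehicle within each of the 4 repeats. Control cells spanned 7.20 to 7.97 with DOX and 7.58 to 7.97 with vehicle. The shRNA-1 DOX arrays of repeats E and F lay within the range of the control DOX arrays. By repeat, the response ran from 0.08 (shRNA-1, repeat E) to 1.17 (shRNA-1, repeat A, where the control DOX array read 7.20). The response over both hairpins was 0.58 ± 0.18 (adjusted p = 0.136 without and 0.0255 with the repeat block), and for shRNA-2 alone 0.66 ± 0.21 (0.201 without and 0.0394 with the block). With no block, 1 of 28 refits that each left out 1 array passed the threshold for the mean response. The adjusted p ran from 0.0396, without the shRNA-1 DOX array of repeat F, to 0.25. The response itself ran from 0.47, without control DOX array A, to 0.66.

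METTL23, a methyltransferase whose gene is the next one after JMJD6 and overlaps it in the RefSeq annotation, had overlapping groups. It read 8.49, 8.30, 9.25 and 9.10 in shRNA-1 cells with DOX, against 8.58, 9.09, 9.11 and 9.10 with vehicle. It read 8.74, 8.89, 9.09 and 9.23 in shRNA-2 cells with DOX, against 8.57, 8.54, 8.93 and 9.10 with vehicle. For both hairpins the DOX and vehicle arrays spanned a common range, and the arrays of repeats A and B were mostly lower than the others. The mean response was 0.02 ± 0.20 (95% interval -0.39 to 0.44, adjusted p = 0.991), and it was positive in 5 of 8 repeats.

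**Figure D1:**
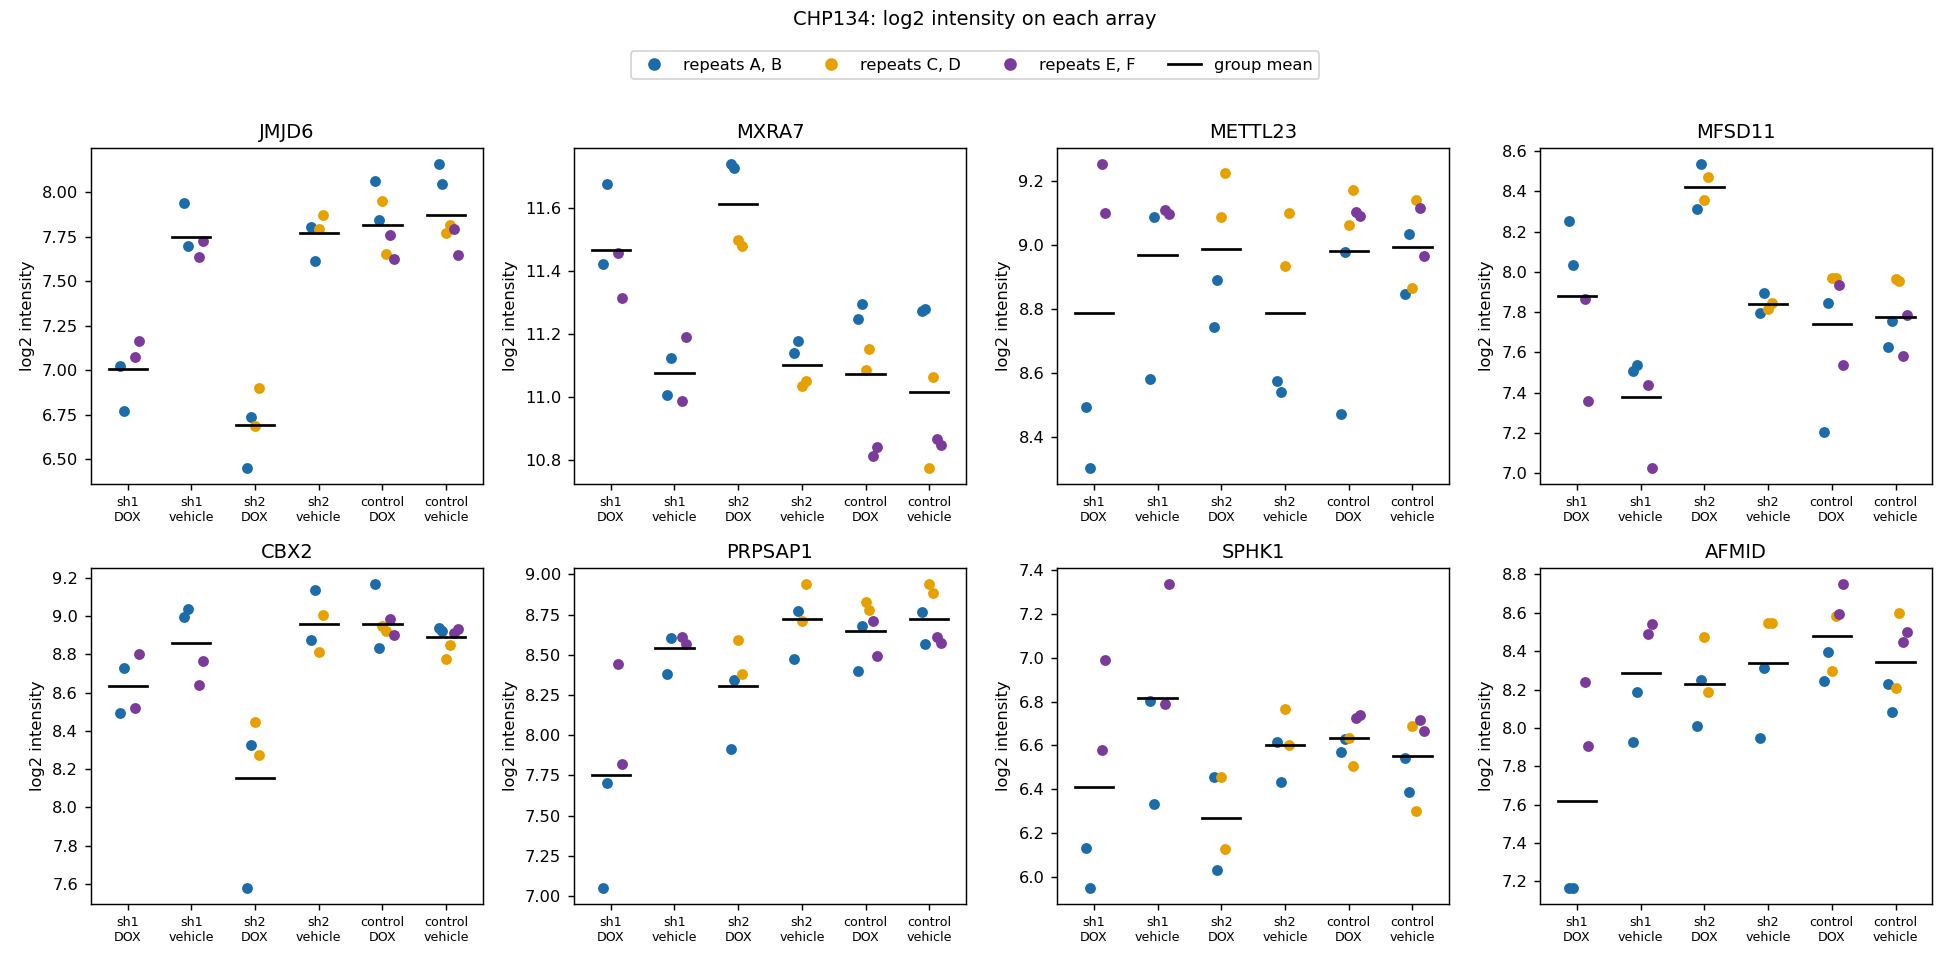
Log2 intensity of JMJD6, the 3 listed genes closest to it and 4 further genes of the band on each CHP134 array (y axis), by group (x axis: sh1 and sh2 are JMJD6 shRNA-1 and shRNA-2), with points coloured by repeat letters and bars at the group means. MXRA7 lay at 11.31 or more on every DOX array of the JMJD6 shRNA cells and at 11.30 or less on every other array, while METTL23 overlapped in all groups.

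CBX2, the chromodomain subunit of Polycomb repressive complex 1, had the most negative response among the 40 genes. It read 7.58, 8.32, 8.45 and 8.27 in shRNA-2 cells with DOX, against 8.88, 9.14, 8.81 and 9.01 with vehicle. It read 8.49, 8.73, 8.52 and 8.80 in shRNA-1 cells with DOX, against 8.997, 9.04, 8.64 and 8.77 with vehicle. All DOX arrays of shRNA-2 cells lay below all other CHP134 arrays, whereas the 2 groups of shRNA-1 cells overlapped. The mean response was -0.58 ± 0.15 (adjusted p = 0.0544 without and 0.0191 with the repeat block) and the shRNA-2 response -0.90 ± 0.22 (0.0682 without and 0.0297 with the block). Without the shRNA-2 DOX array of repeat A, the lowest of all, the mean response was -0.49 and the shRNA-2 response -0.71. CBX2 was called in the mean response with no block once dim clusters were left out (0.0425) or a trended, robust moderation was used (0.0457).

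PRPSAP1 and SPHK1 are adjacent on the chromosome and lie 11 and 10 protein-coding genes before JMJD6. PRPSAP1, a regulatory partner of the enzymes that make phosphoribosyl pyrophosphate for nucleotide synthesis, read 7.05, 7.70, 8.44 and 7.82 in shRNA-1 cells with DOX, against 8.38, 8.61, 8.61 and 8.57 with vehicle. It read 7.91, 8.34, 8.59 and 8.38 in shRNA-2 cells with DOX, against 8.48, 8.77, 8.71 and 8.94 with vehicle. DOX was below vehicle in every repeat of both hairpins, but the groups overlapped, and the 4 shRNA-1 arrays with DOX spread over more than a log2 unit. SPHK1, which makes the lipid messenger sphingosine-1-phosphate, read 6.13, 5.95, 6.58 and 6.99 in shRNA-1 cells with DOX, against 6.80, 6.33, 6.79 and 7.34 with vehicle. It read 6.46, 6.03, 6.46 and 6.13 in shRNA-2 cells with DOX, against 6.61, 6.43, 6.76 and 6.60 with vehicle. Again DOX was below vehicle in every repeat while the groups overlapped. The mean response was -0.53 ± 0.20 for PRPSAP1 (adjusted p = 0.277 without and 0.0488 with the repeat block) and -0.45 ± 0.20 for SPHK1 (0.392 and 0.0438), and both were negative in 8 of 8 repeats.

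AFMID, kynurenine formamidase of tryptophan breakdown, had its more negative value with shRNA-1. It read 7.17, 7.16, 8.24 and 7.91 in shRNA-1 cells with DOX, against 7.93, 8.19, 8.49 and 8.54 with vehicle. It read 8.01, 8.25, 8.47 and 8.19 in shRNA-2 cells with DOX, against 7.95, 8.31, 8.55 and 8.54 with vehicle. Every repeat of shRNA-1 was lower with DOX, whereas in shRNA-2 cells repeats A to C moved by less than 0.1 and repeat D by more. The mean response was -0.52 ± 0.21 (adjusted p = 0.332 without and 0.0253 with the repeat block), made up of -0.85 ± 0.31 for shRNA-1 and -0.21 for shRNA-2. RBFOX3, the neuronal splicing factor known as NeuN, read 9.36, 9.71, 8.62 and 8.98 in shRNA-2 cells with DOX, against 8.61, 9.04, 8.39 and 8.23 with vehicle. The 2 groups overlapped because repeats C and D were lower than A and B, but every repeat was higher with DOX. Its shRNA-2 response was 0.68 ± 0.36 (adjusted p = 0.55 without and 0.0258 with the repeat block), and it was positive in 8 of 8 repeats over both hairpins.

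The window before the annotated start is shown for the 3 members called with the repeat block in the mean response whose window began at the outer end of the gene and lay within no other gene. Each sequence gives the 250 bases directly upstream of the RefSeq start on the gene's own strand (GRCh38.p14): chr17:76710966-76711215 on the minus strand for MXRA7, chr17:76354199-76354448 on the minus strand for PRPSAP1, and chr17:76382954-76383203 on the plus strand for SPHK1. Capitals mark matches, on either strand, to the E-box of Myc proteins (CACGTG or its variant CACGCG), the GC box (GGGCGG) or CCAAT.
MXRA7: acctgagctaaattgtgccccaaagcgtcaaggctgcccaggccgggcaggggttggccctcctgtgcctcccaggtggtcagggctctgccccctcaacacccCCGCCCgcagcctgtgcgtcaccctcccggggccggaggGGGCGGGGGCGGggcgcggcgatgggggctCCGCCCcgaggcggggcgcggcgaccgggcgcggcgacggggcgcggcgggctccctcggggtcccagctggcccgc
PRPSAP1: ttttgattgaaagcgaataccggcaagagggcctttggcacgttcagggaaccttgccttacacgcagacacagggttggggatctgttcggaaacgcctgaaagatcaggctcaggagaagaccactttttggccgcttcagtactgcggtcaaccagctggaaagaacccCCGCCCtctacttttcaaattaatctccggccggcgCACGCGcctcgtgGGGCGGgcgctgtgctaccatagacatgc
SPHK1: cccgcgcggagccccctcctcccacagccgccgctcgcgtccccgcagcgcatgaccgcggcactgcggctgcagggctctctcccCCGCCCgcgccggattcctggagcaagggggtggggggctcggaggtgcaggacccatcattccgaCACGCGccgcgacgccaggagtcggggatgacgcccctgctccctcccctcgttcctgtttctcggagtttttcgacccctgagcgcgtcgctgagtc
The window of MXRA7 held 4 GC boxes, of which 2 were directly adjacent, and neither form of the E-box. Those of PRPSAP1 and SPHK1 each held 1 CACGCG, with 2 GC boxes in PRPSAP1 and 1 in SPHK1, and none of the 3 held CACGTG or CCAAT. Of the called members not shown, MFSD11, which was higher, had 1 CACGCG in its window. AFMID, which was lower, had neither form of the E-box. A link between these letters and the direction of a response was not tested. Over all 35116 RefSeq windows of this length, CACGTG was found in 6.34%, CACGCG in 9.72%, GGGCGG in 42.6% and CCAAT in 32%. Windows were found for 29 of the 44 members, and 16 of these had one at the outer start that overlapped no other gene. CACGTG was in 3 of the 16, CACGCG in 5, GGGCGG in 13 and CCAAT in 5. The 35116 windows were not chosen by outer start or overlap, so these counts cannot be set against their shares. A match describes letters only, and no binding was measured.

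Counted over the 40 measured members, 0 passed the adjusted threshold in the mean response of CHP134, against 1.25% of all clusters (268 of 21448), and 6 (2 higher and 4 lower) had an unadjusted p under 0.05, against 10.3% of all clusters. With the repeat letter as a block 6 of 40 were called (MXRA7 and MFSD11 higher, PRPSAP1, SPHK1, AFMID and CBX2 lower), against 6.18% of all clusters. With the repeat set as the block in place of the letter, PRPSAP1 and SPHK1 lost their calls (adjusted p = 0.0777 and 0.0989 by limma) and the other 4 were called. The members' median response was 0.03, beside 0.00 for all clusters, and 25 of 40 were above 0, against 10812 of 21448 clusters. This median ran from 0.00069 without control vehicle array E to 0.11 without control vehicle array C. The same sign in all 8 repeats was found for 7 members, against 8.68% of all clusters. These were MXRA7, MFSD11, UBE2O, CYTH1 and RBFOX3 on the higher side and PRPSAP1 and SPHK1 on the lower side, and the 2 hairpins share the control arrays of repeats A and B in this count. UBE2O, a ubiquitin-conjugating enzyme, gave between 0.06 and 0.36. CYTH1, an exchange factor for ARF GTPases, ranged from 0.02 to 0.71. The positive-to-negative control gap, a measure of array contrast, was 7.39, 7.44, 7.72 and 7.70 in shRNA-2 cells with DOX, against 7.59, 7.56, 7.83 and 7.87 with vehicle, and its part in these results was not tested.

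**Figure D2:**
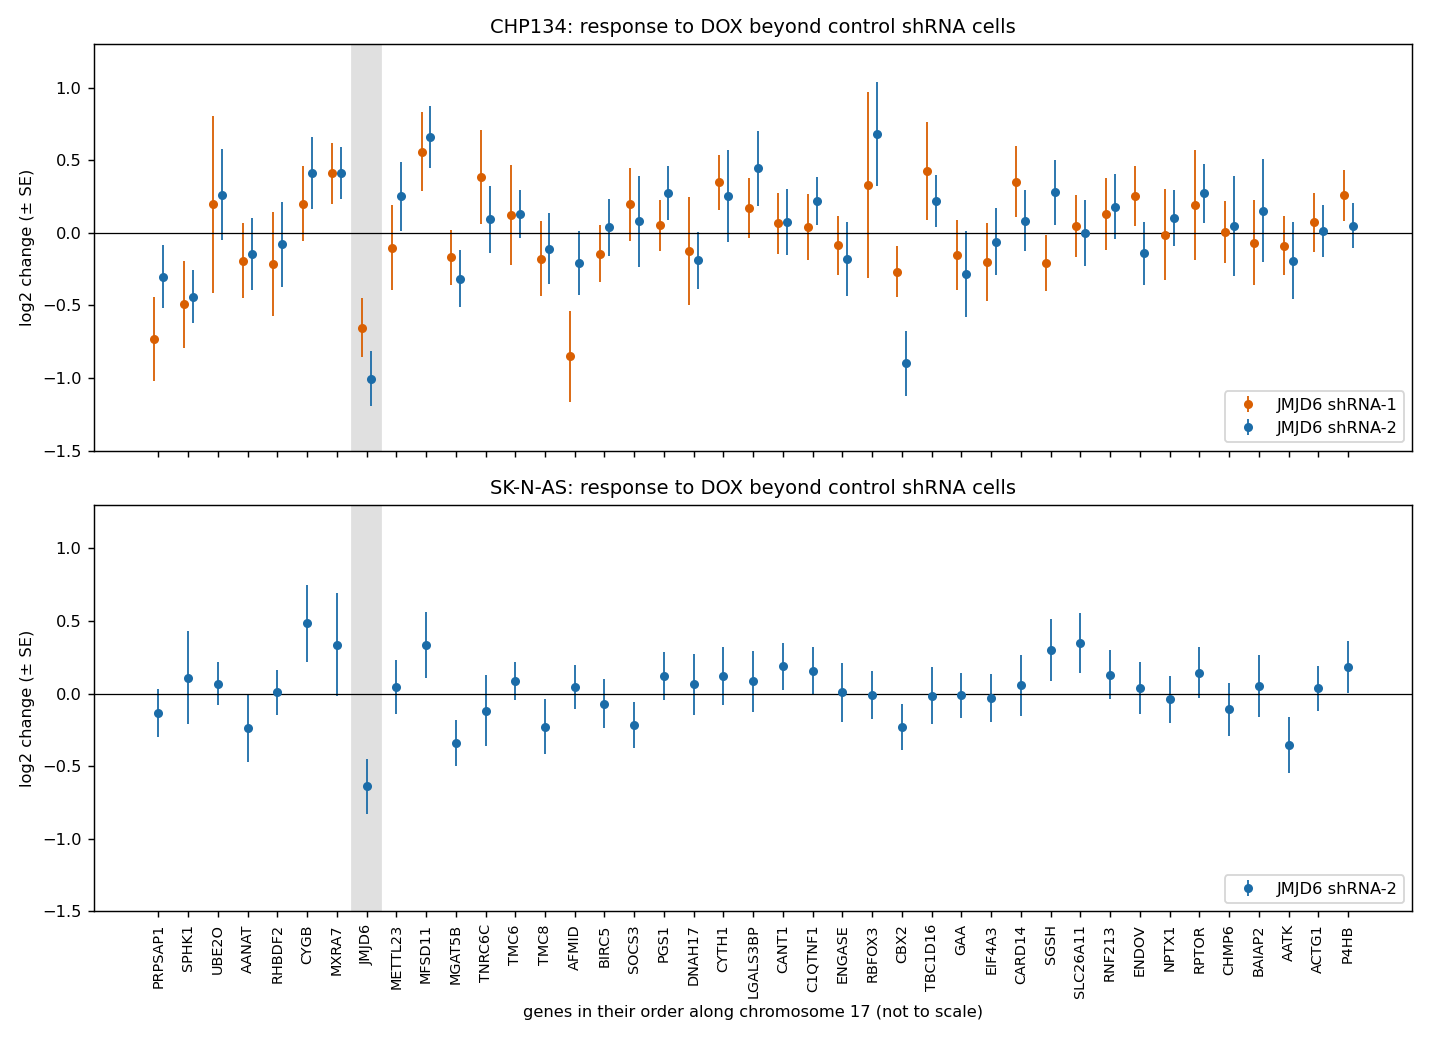
Response to DOX of JMJD6 shRNA cells beyond control shRNA cells (y axis: log2 change ± SE) for JMJD6 (grey band) and the 40 measured genes in their order along chromosome 17 (x axis), for both hairpins in CHP134 (above) and shRNA-2 in SK-N-AS (below). MXRA7 and MFSD11 were above 0 in all 3 cases (0.41, 0.41 and 0.34 for MXRA7). So were other genes, among them CYGB (0.48 in SK-N-AS), CYTH1, RPTOR and UBE2O, and most genes scattered about 0. The 2 CHP134 responses share the control arrays of repeats A and B. In SK-N-AS the MXRA7 value ran from 0.050 to 0.61 when 1 array was left out.

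The responses were also read along the chromosome. The 10 measured members from PRPSAP1 to MGAT5B, which lie before JMJD6 or up to 4 protein-coding genes beyond it, had a median of -0.05 and held both positive and negative values, and the 30 from TNRC6C onward had a median of 0.04. For comparison, 89 other genes of the same band had a median of -0.09, with 0 higher and 2 lower past the threshold. The 449 genes of the long arm from RARA to PRPSAP1 had a median of 0.01, with 2 higher and 0 lower. These lists share genes. Of all 21448 clusters, 87 were higher and 181 lower past the threshold (1.25%).

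By role, the 6 measured members of the chromatin and RNA group were split. CBX2 fell in the blocked fit and RBFOX3 gave 0.50, while METTL23 stood near 0, EIF4A3 (a helicase of the exon junction complex) gave -0.14, ENDOV (an endonuclease acting on inosine) 0.06, and TNRC6C (a partner of Argonaute in microRNA silencing) 0.23. The 12 of signalling and trafficking ranged from -0.45 (SPHK1) to 0.34 (CYTH1), with 0 past the threshold. Among them RPTOR gave 0.25, TBC1D16 (a GTPase-activating protein for Rab proteins) 0.29, CARD14 (a scaffold of NF-kB signalling) 0.24, RHBDF2 (which steers the protease ADAM17) -0.11, AATK (a kinase of neurons) -0.11, TMC6 and TMC8 (a pair of membrane proteins that limit papillomavirus infection) 0.12 and -0.14, SOCS3 (a feedback inhibitor of cytokine signalling) 0.01, CHMP6 (an ESCRT-III subunit) 0.03 and BAIAP2 (a shaper of actin-rich protrusions) -0.01. The ubiquitin genes UBE2O and RNF213 (a very large ubiquitin ligase) gave 0.24 and 0.21, and BIRC5 gave -0.04. Of the 5 lysosome and glycan genes, MGAT5B (a branching glycosyltransferase) gave -0.26, GAA (lysosomal alpha-glucosidase) -0.21, ENGASE (which releases glycans from proteins) -0.14, SGSH (lysosomal sulfamidase) 0.03 and CANT1 (a nucleotidase of the secretory pathway) 0.08. All 5 measured genes of the secreted, matrix and folding group were above 0, as were 10812 of 21448 clusters. They ran from 0.04 (NPTX1, neuronal pentraxin) to 0.40 (MXRA7), with LGALS3BP (a secreted galectin-binding glycoprotein) at 0.29, P4HB (protein disulfide isomerase) at 0.15 and C1QTNF1 (a secreted C1q-like protein) at 0.11. In metabolism and transport, CYGB (cytoglobin) gave 0.34, PGS1 (a cardiolipin-pathway enzyme) 0.15, AANAT (the rhythm enzyme of melatonin synthesis) -0.14 and SLC26A11 (an anion transporter) 0.00. The cytoskeletal genes ACTG1 (gamma-actin) and DNAH17 gave 0.03 and -0.16. Apart from the 6 named above, none of these was called with the block.

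Taken one hairpin at a time, 0 of 40 members passed the threshold for shRNA-1, against 0% of all clusters, and 2 (AFMID and PRPSAP1, both lower) had an unadjusted p under 0.05, against 5.21%. With the repeat block 0 members were called for shRNA-1, against 0.0746% of all clusters. For shRNA-2, 0 of 40 passed the threshold, against 0.779% of all clusters, and 4 had an unadjusted p under 0.05 (MFSD11 and MXRA7 higher, CBX2 and SPHK1 lower), against 10.4%. With the block 3 were called for shRNA-2 (MFSD11, RBFOX3 and CBX2), against 4.47%, and with the repeat set as the block MFSD11 was not (adjusted p = 0.0665 by limma). The difference between the hairpins was tested as well. None of 40 members passed (0.00932% of all clusters did), and 1 had an unadjusted p under 0.05, against 5.18%. That member was CBX2, which fell by 0.58 ± 0.20 more on the log2 scale with shRNA-2 than with shRNA-1 (95% interval -0.99 to -0.16, adjusted p = 0.706). For AFMID the difference was 0.56 ± 0.28 (-0.01 to 1.14), for SGSH 0.41 ± 0.21 (-0.02 to 0.85) and for METTL23 0.38 ± 0.26 (-0.16 to 0.92). For MXRA7 it was 0.12 (-0.26 to 0.51) and for MFSD11 0.08 (-0.41 to 0.57), and both intervals include 0.

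DOX alone was examined in control shRNA cells of CHP134. None of 40 members passed the threshold (0% of all clusters did) and 0 had an unadjusted p under 0.05, against 0.979% of all clusters. The smallest p values were those of MGAT5B, at 0.16 ± 0.11, C1QTNF1 at -0.15 ± 0.12, SLC26A11 at 0.17 ± 0.13 and SOCS3 at -0.21 ± 0.17, each within 2 SE of 0. MXRA7 gave 0.05 ± 0.11 and MFSD11 -0.04 ± 0.14 in these cells, and SOCS3 had the largest value of the 40 in size.

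The uninduced JMJD6 shRNA lines were compared with the uninduced control line. For shRNA-1, 0 of 40 members passed (0% of all clusters), 7 had an unadjusted p under 0.05, against 11.2%, and 1, CYTH1, was called with the repeat block, against 0.788%. CYTH1 read 6.94, 7.04, 6.69 and 7.01 in shRNA-1 vehicle cells, against 7.25 to 8.01 in control vehicle cells with a median of 7.38, and the groups did not overlap. The difference was -0.61 ± 0.19 without the block (adjusted p = 0.24) and -0.41 ± 0.10 with it (0.048), and the adjusted p was 0.103 with the repeat set as the block. MFSD11 gave -0.40 ± 0.15 in the uninduced shRNA-1 line (adjusted p = 0.334), AATK 0.40 ± 0.16 and CANT1 0.31 ± 0.14, none of them past the threshold. For shRNA-2, 0 of 40 passed (0% of all clusters) and 0 had an unadjusted p under 0.05, against 2.14%. ENGASE (0.28 ± 0.16), RNF213 (0.25 ± 0.16), CYGB (-0.24 ± 0.17) and METTL23 (-0.21 ± 0.17) had the smallest p values there.

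In SK-N-AS, JMJD6 read 6.44, 6.84 and 6.63 in shRNA-2 cells with DOX (repeats A, B and C), against 7.26, 7.16 and 7.44 with vehicle. DOX lay below vehicle without overlap, and the response was -0.64 ± 0.19 (adjusted p = 0.536), made up of -1.02, 0.02 and -0.92 by repeat letter. In this line only 4 of 18 pairs of arrays sharing a letter correlated over 0.1. None of 40 members passed the threshold (0% of all clusters did), and 0 had an unadjusted p under 0.05, against 5.66% of all clusters. MFSD11 read 7.81, 7.94 and 7.72 in shRNA-2 cells with DOX, against 7.25, 7.82 and 7.15 with vehicle, and its response was 0.33 ± 0.23 (95% interval -0.16 to 0.82), or 0.20 without shRNA-2 vehicle array C and 0.54 without shRNA-2 vehicle array B. The 2 groups overlapped through the vehicle array of repeat B. MXRA7 read 10.13, 10.06 and 9.84 in shRNA-2 cells with DOX, against 9.74, 9.66 and 9.49 with vehicle. These groups did not overlap, but the 6 control arrays spanned 9.30 to 10.19 with DOX and 9.28 to 10.25 with vehicle, and the response was 0.34 ± 0.36 (-0.43 to 1.11). It was 0.050 without control DOX array B and 0.61 without control vehicle array A. CBX2 read 7.42, 7.69 and 7.35 in shRNA-2 cells with DOX, against 7.74, 7.69 and 7.70 with vehicle, a response of -0.23 ± 0.16 (-0.57 to 0.12). The members with the smallest p values were MGAT5B at -0.34 ± 0.16, CYGB at 0.48 ± 0.27, AATK at -0.35 ± 0.19 and SLC26A11 at 0.35 ± 0.21 (adjusted p from 0.875 to 0.915). PRPSAP1 gave -0.13, SPHK1 0.11, AFMID 0.05 and RBFOX3 -0.01. With 3 arrays per group, changes of the size seen in CHP134 lay within the intervals for MXRA7 and MFSD11. The interval of CBX2 held neither its mean response nor its shRNA-2 response in CHP134. That mean response, -0.58, lay close to the lower end of the interval, and the CHP134 values have an error of their own. The lines were normalized and fitted apart, and whether the responses differ between them was not tested.

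The 2 control arrays that stood apart in SK-N-AS did so for these genes at a share near that of all clusters. In 16 of 40 members both arrays lay outside the range of the other 4 control arrays (3 above and 13 below), against 37.9% of all clusters. MXRA7 read 9.28 and 9.30 on them, against 9.97 to 10.25 on the other 4, and SPHK1 read 6.82 and 6.95, against 7.48 to 7.75. Without both arrays the response was 0.33 for MXRA7, 0.35 for MFSD11 and 0.52 for CYGB, with 0 members called as before. Control cells of SK-N-AS given DOX had 0 of 40 members past the threshold (0% of all clusters) and 0 at an unadjusted p under 0.05, against 3.19%. In the uninduced shRNA-2 line 0 of 40 passed, against 0.00466% of all clusters, and 0 had an unadjusted p under 0.05, against 7.62%. TBC1D16 (0.24 ± 0.14), AATK (0.23 ± 0.14), BAIAP2 (0.25 ± 0.15) and MGAT5B (0.18 ± 0.11) had the smallest p values for DOX in control cells. In the uninduced line they belonged to C1QTNF1 (-0.24 ± 0.12), AATK (0.25 ± 0.14), LGALS3BP (0.27 ± 0.15) and CYTH1 (0.24 ± 0.14), with adjusted p from 0.652 to 0.672 by limma. Leaving out both arrays raised the clusters called in the uninduced line to 1063, with 0 members among them, and MXRA7 then stood 0.48 below control cells (adjusted p = 0.0648), against a difference of -0.21 with all arrays.

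**Figure D3:**
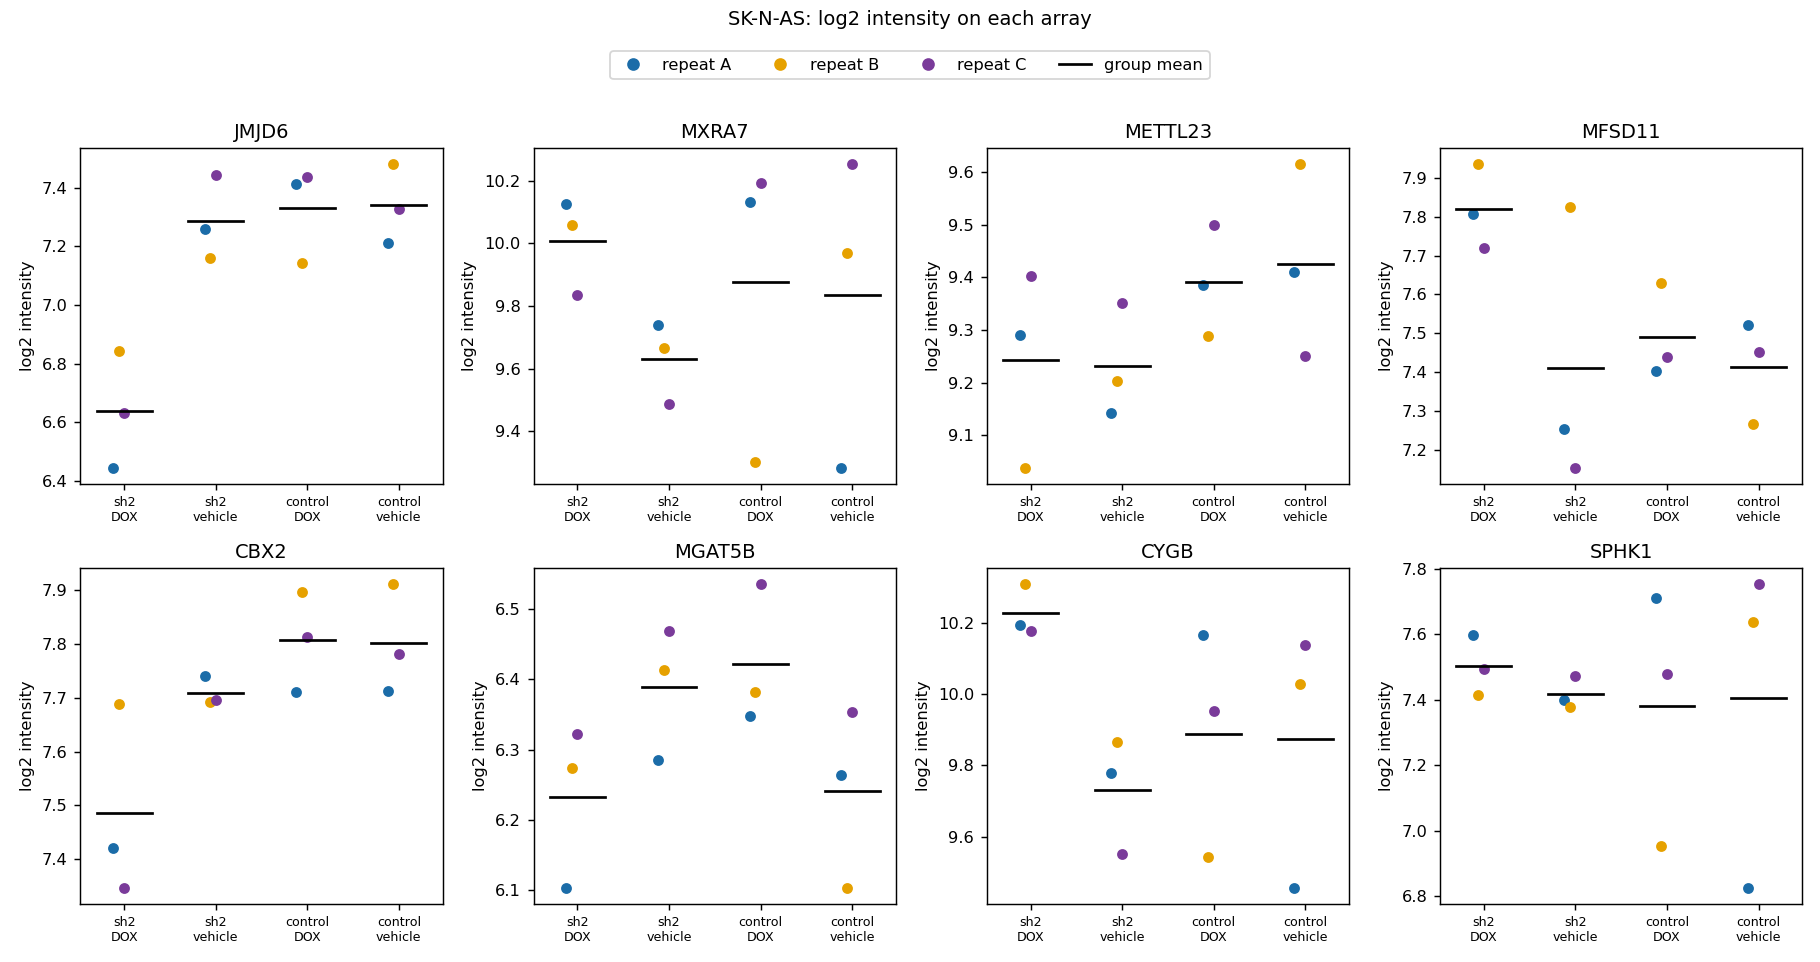
Log2 intensity of JMJD6 and 7 genes of the band on each SK-N-AS array (y axis), by group (x axis: sh2 is JMJD6 shRNA-2), with points coloured by repeat and bars at the group means. The low control points of MXRA7, CYGB and SPHK1 are vehicle A and DOX B, at 9.28 and 9.30 for MXRA7.

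The repeat letters of CHP134 fell into 3 sets, A with B, C with D and E with F, and many of the members differed between sets. What the sets stand for is not given in the labels. A moderated F test over sets, with the groups in the fit, called 27 of 40 members, against 53.1% of all clusters. RBFOX3 was 0.80 ± 0.13 lower in set C and D and 1.13 ± 0.13 lower in set E and F than in set A and B, and UBE2O was lower by 0.72 ± 0.13 and 1.04 ± 0.13. RHBDF2 was lower by 0.57 and 0.65, and RPTOR by 0.33 and 0.66. In control cells alone UBE2O averaged 9.19 in set A and B, 8.65 in set C and D and 8.68 in set E and F, and RPTOR 7.88, 7.75 and 7.54, so that the gap to set E and F was smaller there than over all groups. CYTH1 was 0.56 ± 0.07 higher in set C and D, and TMC6 0.59 ± 0.09 higher in set E and F. In control cells alone RBFOX3 spanned 8.92 to 9.09 in set A and B, 8.21 to 8.49 in set C and D and 8.20 to 8.49 in set E and F, with no overlap between the first set and the others. In shRNA-1 cells RBFOX3 read 9.29 and 9.26 with DOX in repeats A and B but 7.75 and 7.45 in repeats E and F, a wider gap than in control cells, which was not tested. CBX2 (largest set difference 0.06, adjusted p = 0.879) and MFSD11 (0.30, adjusted p = 0.0999) were not called between sets, while MXRA7 (0.25, adjusted p = 0.00769) and AFMID (0.51, adjusted p = 7.7e-05) were. Within sets, CBX2 gave -1.13 for shRNA-2 in repeats A and B and -0.68 in repeats C and D, MFSD11 0.75 and 0.58, and MXRA7 0.58 and 0.25. For shRNA-1, MFSD11 gave 0.79 in repeats A and B and 0.33 in repeats E and F, MXRA7 0.49 and 0.33, AFMID -1.06 and -0.64, and PRPSAP1 -0.998 and -0.46, so each kept its direction in both sets. The median of the largest set difference was 0.38 over the 40 members.

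**Figure D4:**
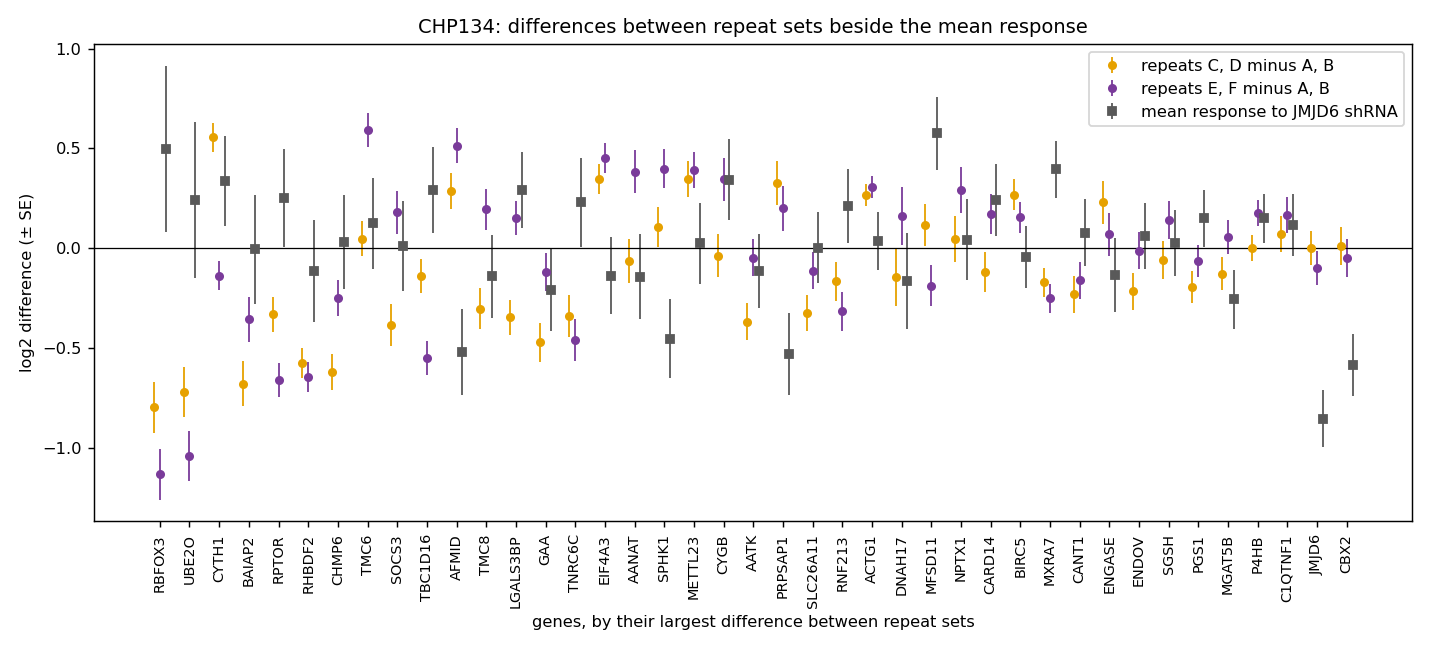
Differences between repeat sets of CHP134 (circles) and the mean response to JMJD6 shRNA (squares), in log2 units ± SE (y axis), for JMJD6 and the 40 measured genes, sorted by the largest set difference (x axis). RBFOX3 and UBE2O, at the left, differed by 1.13 and 1.04 between sets, whereas CBX2, at the right, differed by 0.06 and responded by -0.58.

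The basal levels of the members in control vehicle cells are given side by side for the lines, with no test, since their arrays were normalized apart. The arrays of the lines did not overlap for 12 members that were higher in CHP134, against 28.8% of all clusters, and for 11 that were lower in CHP134, against 15.1%, and 12 differed by more than 1 log2 unit (30.0% of members, beside 19.6% of all clusters). RBFOX3, a gene of mature neurons, averaged 8.60 ± 0.38 in CHP134 (SD, n = 6) and 5.63 ± 0.14 in SK-N-AS (SD, n = 3). BAIAP2 averaged 8.49 in CHP134 and 6.65 in SK-N-AS, and BIRC5 9.71 ± 0.18 in CHP134 and 8.29 ± 0.11 in SK-N-AS. MXRA7, CBX2, AFMID, UBE2O and EIF4A3 were each between 1.01 and 1.18 higher in CHP134. In the other direction, CYGB averaged 5.75 ± 0.27 in CHP134 and 9.87 ± 0.37 in SK-N-AS, LGALS3BP 6.81 ± 0.26 in CHP134 and 10.47 ± 0.24 in SK-N-AS, RNF213 5.57 in CHP134 and 7.58 in SK-N-AS, and C1QTNF1 6.57 in CHP134 and 7.69 in SK-N-AS. JMJD6 averaged 7.87 ± 0.19 in CHP134 and 7.34 ± 0.14 in SK-N-AS, and METTL23 8.99 in CHP134 and 9.43 in SK-N-AS, so that the genes next to each other did not share 1 direction. PRPSAP1, RPTOR, P4HB, CANT1, TMC6, TBC1D16, CARD14, NPTX1, SOCS3, PGS1, ENGASE, MGAT5B, SLC26A11, AANAT, AATK, TNRC6C and DNAH17 overlapped between the lines.

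**Figure D5:**
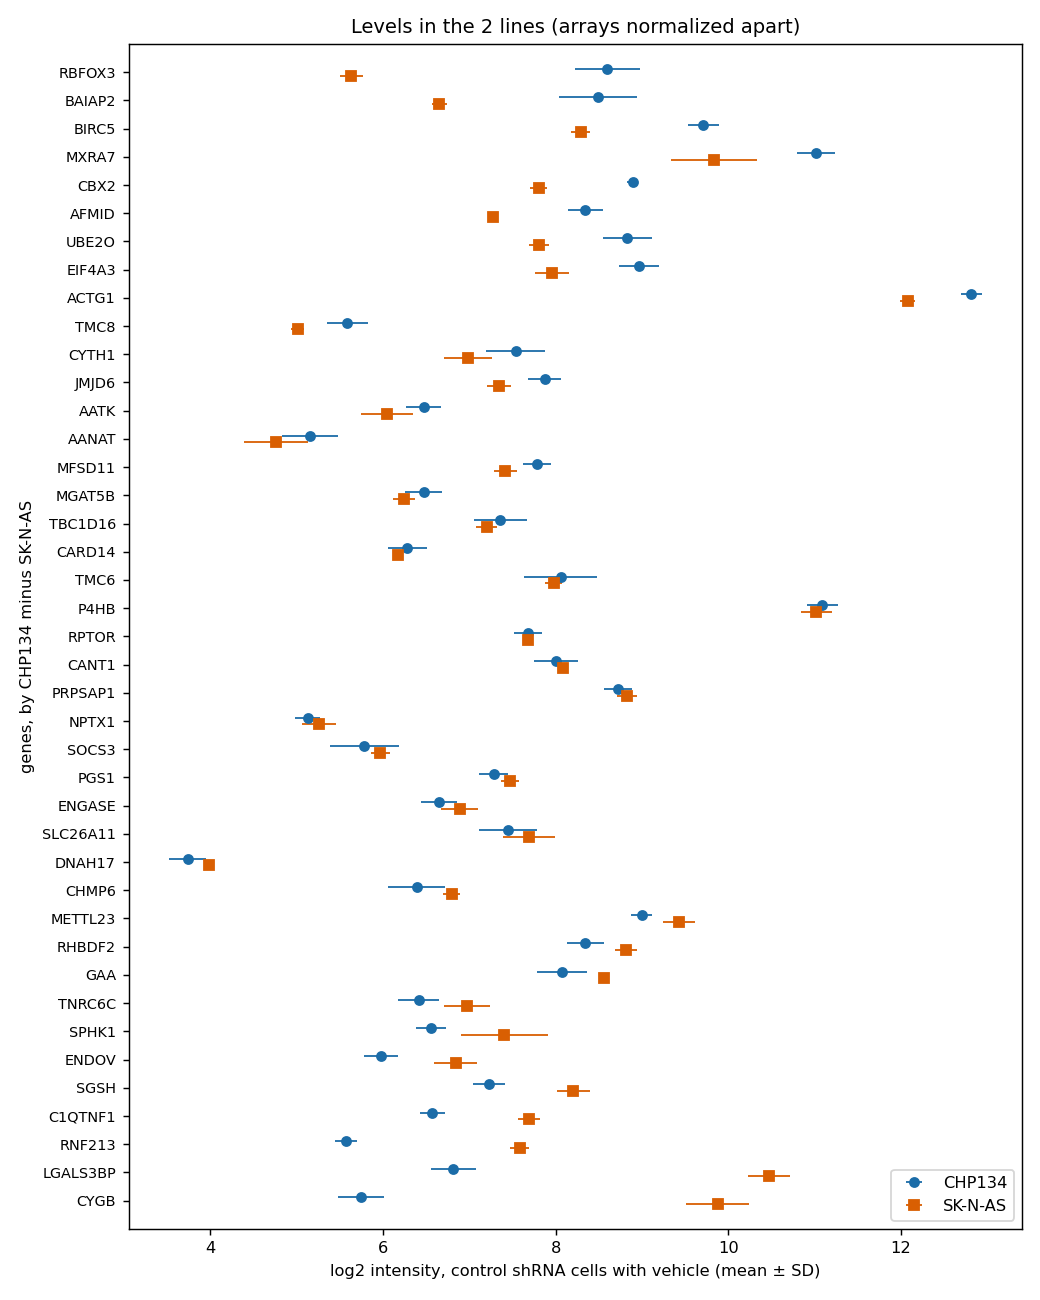
Log2 intensity of JMJD6 and the 40 measured genes in control shRNA cells with vehicle (x axis: mean ± SD, n = 6 for CHP134 and n = 3 for SK-N-AS), sorted by the difference between the lines (y axis). RBFOX3 at the top was 2.96 higher in CHP134 and CYGB at the bottom 4.13 lower in CHP134, with the arrays of the lines normalized apart.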

How the data were processed

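RNA was hybridised to Affymetrix Clariom S human arrays. The values are deposited log2 intensities that the authors made with RMA (background correction, quantile normalization and summary per transcript cluster) and tested with limma. The lines were normalized apart and tested apart. The 44 members and the gene lists were chosen with earlier results of these data known. The table held 27189 probe sets, and after 5741 controls were set aside the remaining 21448 clusters were fitted with limma 3.58.1 in R 4.3.3 (lmFit, contrasts.fit and eBayes, two-sided, Benjamini-Hochberg over all clusters, threshold 0.05). Single hairpin responses used that hairpin's arrays and the control arrays of the same repeats (16 arrays), and the mean response all 28. Genes were named by platform annotation, and no member had more than 1 cluster. Sample titles set the groups. The design text swaps the letters of the 2 hairpins.

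In CHP134 the deviations from group means correlated over 0.1 in all 54 pairs of arrays sharing a letter (0.14 to 0.593). They also did so in 81 of 270 pairs with different letters (-0.591 to 0.545). Arrays sharing a letter also share a set, so this check cannot tell pairing by letter from pairing by set. The letter was fitted as a block beside the fits without it. In SK-N-AS, where the array of each group without a letter was called A, 4 of 18 pairs sharing a letter correlated over 0.1. Genes given with test values were JMJD6, the 3 listed genes closest to it, the members called in a comparison and the 4 with the smallest p in each, beside values for all measured members by role. The number of arrays limits the precision. Alternatives were the repeat letter or set as a block, dim clusters left out, trended robust moderation, arrays centred on their median, all arrays in 1 fit, the study's threshold, repeat sets apart and leaving out each array.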

Additional observations from a re-analysis of the deposited data

Results flagged for a closer look

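Within groups of 4 to 6 CHP134 arrays, 12 of the 246 combinations of gene and group examined had 1 array far from the rest, with a gap to its nearest neighbour above Dixon's critical value at the 95% level. Chance alone marks about 1 in 20 such groups. In control vehicle cells of repeat C, TNRC6C read 5.965 (nearest other array 6.431), CHMP6 5.753 (6.363), BAIAP2 7.605 (8.44) and BIRC5 10.04 (9.723). In control DOX cells, BIRC5 read 10.05 in repeat C (9.703) and METTL23 8.472 in repeat A (8.979). Among shRNA-1 cells, the vehicle array of repeat A stood apart for METTL23 at 8.581 (9.088) and for GAA at 8.634 (8.393), the vehicle array of repeat B for CARD14 at 6.042 (6.525), and the DOX array of repeat F for ENDOV at 6.43 (6.133). Among shRNA-2 cells, ENGASE read 6.396 in the vehicle array of repeat A (7.043) and AANAT 4.773 in the DOX array of repeat A (5.181). Repeat C of control cells recurred for BIRC5, which was the highest of its group both with DOX and with vehicle.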

How the results depend on the processing

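With the repeat letter as a replicate block, clusters called were 1326 in the CHP134 mean response (6 members), 16 for shRNA-1, 959 for shRNA-2 (3 members), 70 in the hairpin difference and 169 in the uninduced shRNA-1 line (1 member). With the repeat set as a block they were 1203 (4 members), 33, 749 (2 members), 56 and 4. Either block turned METTL23 to 0.024 in the uninduced shRNA-1 line and MFSD11 to -0.022 in the uninduced shRNA-2 line, and METTL23 gave 0.017 for shRNA-1 within repeats E and F. In SK-N-AS, where few arrays sharing a letter correlated, the block left 0 clusters called in the uninduced line. In no other comparison did the block move a count of clusters by over 1.5 times. At the study's threshold (fold over 1.5, unadjusted p under 0.05, adjusted p under 0.2) clusters called were 527 in the mean response, 5 for shRNA-1, 622 for shRNA-2 (1 member), 7 in the hairpin difference, 39 in the uninduced shRNA-1 line, 23 in the SK-N-AS response and 3 in its uninduced line. Trended, robust moderation gave 1 member in the mean response, 5 clusters for shRNA-1 and 16 in the SK-N-AS response, and leaving out dim clusters 1 member in the mean response. All CHP134 arrays in 1 fit gave 26 clusters for shRNA-1 and 302 for shRNA-2 (1 member). Centring arrays on their median kept all counts within 1.5 times.

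Leaving out the 2 SK-N-AS control arrays that stood apart, an alternative chosen after seeing the data, gave 1063 clusters in the uninduced line, with MFSD11 at 0.051 there and, for DOX in control cells, JMJD6 at 0.021 and METTL23 at 0.0085. Leaving out 1 array at a time gave 0 to 2 members in the mean response, 0 to 2 clusters for shRNA-1 (median of members -0.033 to 0.088), 72 to 193 clusters and 0 to 1 members for shRNA-2, 1 to 4 clusters in the hairpin difference, 0 to 217 in the uninduced shRNA-1 line, 0 to 27 in the SK-N-AS response and 0 to 7 in its uninduced line (median of members -0.071 to 0.013). The 72 came without control DOX array B. In these refits METTL23 spanned -0.078 to 0.10 in the mean response, -0.26 to 0.059 for shRNA-1, -0.053 to 0.087 for DOX in control cells and -0.073 to 0.10 in the uninduced shRNA-1 line, MFSD11 -0.094 to 0.20 in the hairpin difference and -0.081 to 0.072 for DOX in control cells, and JMJD6 -0.10 to 0.0030 for DOX in control cells. In SK-N-AS, METTL23 spanned -0.049 to 0.15 in the response and -0.12 to 0.061 for DOX in control cells, JMJD6 -0.073 to 0.085 for DOX in control cells and -0.13 to 0.018 in the uninduced line, MXRA7 -0.24 to 0.33 for DOX in control cells and -0.48 to 0.0045 in the uninduced line, and MFSD11 -0.21 to 0.13 in the uninduced line. The cause of these changes was not tested. No member had more than 1 cluster, so no other cluster could be tried.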
